A study of Homo sapiens with 6 samples.

Results

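The amino acid transporters described here are the genes of the solute carrier families SLC1, SLC3, SLC6, SLC7, SLC36, SLC38 and SLC43. They were chosen by name: a probe set was taken where the platform annotation gave it exactly 1 gene symbol and that symbol belonged to one of these families. The rule found 138 of the 54675 probe sets on the array, and these stand for 56 of 19775 named genes. The families do not carry amino acids alone. SLC6A8 moves creatine, SLC6A6 taurine, several SLC6 members monoamine transmitters, and SLC43A3 purine nucleobases.

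Transcripts were measured in CL1-0 and CL1-5, a pair of human lung adenocarcinoma cell lines that share the parental line CL1. CL1-0 is labelled poorly invasive and CL1-5 highly invasive. Both were grown in RPMI medium with fetal bovine serum and antibiotics, with no other treatment named, and each was measured in 3 biological repeats, 1 array for each sample of total RNA, 6 arrays in all. Each line is a single subline, so a difference between them is one between these 2 cultures and not between invasive and non-invasive tumours in general.

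Cells take up amino acids through carriers that differ in substrate, in coupling and in place. The SLC38 and many SLC1 and SLC6 carriers use the sodium gradient to concentrate their substrates. Most SLC7 light chains are exchangers that reach the cell surface only when bound to a heavy chain of SLC3, above all SLC3A2, which is the heavy chain of the CD98 antigen. In tumour cells, the leucine exchanger SLC7A5, the glutamine exchanger SLC1A5 and the cystine-glutamate exchanger SLC7A11 are the best-studied members, since they feed growth signalling through mTORC1, nitrogen metabolism and glutathione synthesis.

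For orientation on regulatory sequence, the 250 bases upstream of the annotated start are shown for 4 members: SLC7A7 and SLC6A8, which had the largest increase and the largest decrease, SLC3A2, the heavy chain that the light chains share, and SLC1A3, the member whose window held the amino acid response element. The sequences are RefSeq's, build GRCh38.p14, read 5′ to 3′ along the gene. Capitals mark matches to TGATGNAAN (the C/EBP-ATF response element through which amino acid shortage acts) or to TGACNNNGC (the core of the antioxidant response element), searched on both strands, and no member's window held both.
SLC7A7 (chr14:22819792-22820041, minus strand): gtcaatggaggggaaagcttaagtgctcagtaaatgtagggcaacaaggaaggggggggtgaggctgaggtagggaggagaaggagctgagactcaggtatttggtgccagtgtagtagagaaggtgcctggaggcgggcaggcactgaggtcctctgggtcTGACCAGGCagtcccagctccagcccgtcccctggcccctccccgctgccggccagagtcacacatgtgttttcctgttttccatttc
SLC6A8 (chrX:153687676-153687925, plus strand): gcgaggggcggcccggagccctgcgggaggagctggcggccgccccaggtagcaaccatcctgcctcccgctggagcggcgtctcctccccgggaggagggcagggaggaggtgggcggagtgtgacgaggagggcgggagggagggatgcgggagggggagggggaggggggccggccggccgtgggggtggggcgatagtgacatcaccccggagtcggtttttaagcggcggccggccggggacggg
SLC3A2 (chr11:62881449-62881698, plus strand): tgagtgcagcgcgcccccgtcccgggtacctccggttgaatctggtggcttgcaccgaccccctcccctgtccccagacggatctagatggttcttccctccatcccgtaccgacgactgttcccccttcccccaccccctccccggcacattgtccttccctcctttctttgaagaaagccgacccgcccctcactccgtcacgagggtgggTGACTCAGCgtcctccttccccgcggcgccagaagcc
SLC1A3 (chr5:36596338-36596587, plus strand): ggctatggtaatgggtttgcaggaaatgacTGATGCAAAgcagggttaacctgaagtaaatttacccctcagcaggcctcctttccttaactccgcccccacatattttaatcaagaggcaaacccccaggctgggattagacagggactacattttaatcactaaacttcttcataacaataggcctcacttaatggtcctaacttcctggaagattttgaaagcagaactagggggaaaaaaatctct

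Upstream sequence was matched for 42 of the 56 members. TGATGNAAN was found in 1 of them (2.38%), against 3.13% of all 35116 windows of that length, and TGACNNNGC in 4 (9.52%), against 10.9%. The 4 members with TGACNNNGC were SLC3A2, SLC7A1, SLC7A6 and SLC7A7, of which 1 was higher in CL1-5, 2 were lower and 1 was not called. A match describes letters and is no evidence of binding.

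The arrays were alike in brightness, with medians between 30.2 and 30.9 signal units. Correlations across genes, which are not independent replicates, lay between 0.989 and 0.996 for arrays of the same line and between 0.856 and 0.866 across the lines. Repeat 3 of both lines stood apart from repeats 1 and 2 on the second principal component, which held 4.42% of the variance. The log2 ratio of 3′ to 5′ signal of the ACTB control, a sign of RNA quality, was 1.17 and 0.91 in repeat 3 and between 0.31 and 0.53 on the other 4 arrays, and its part in the results was not tested. Of the lung epithelial markers, KRT19 failed the filter on low values. NKX2-1, NAPSA, SFTPB and CDH1 were dim, between 25.0 and 47.9 signal units on average in either line. KRT7 averaged 85 in CL1-0 and 96 in CL1-5 and was not called. In the same order KRT8 averaged 49.4 and 555.3, KRT18 46.5 and 4222, and EPCAM 29.3 and 10.3. Of the leukocyte markers, PTPRC (9.91 and 7.93) and CD14 failed the filter and CD3E was not called. Of the endothelial markers, CDH5 (7.55 and 8.41) failed it, VWF was not called, and PECAM1 was higher in CL1-5 (49.8 and 115.1, adjusted p = 3.5e-05 in limma). Of the fibroblast markers, LUM (7.26 and 7.01), COL3A1 and PDGFRB failed it, and COL1A1 and DCN were not called. What the PECAM1 signal reflects in these cultured lines was not tested.

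The design sets CL1-5 against CL1-0, lines of unlike invasiveness and shared origin, and the question here is which of their transporter transcripts differ. Of the 56 transporter genes, 47 were tested, having a probe set that exceeded the array's 40th percentile on 3 or more arrays. SLC38A3, SLC38A4, SLC38A11, SLC6A4, SLC6A14, SLC6A20, SLC7A3, SLC7A13 and SLC7A14 did not pass that filter, with signals of at most 22.7 on any array. Among the 47, 9 genes were higher and 15 lower in CL1-5 and 23 were not called, with limma's test and an adjusted p (Benjamini-Hochberg, over all 14828 genes) under 0.05. That is 51.1% of the tested members, beside 51.6% of all genes tested, with 19.1% of members higher (23.3% of all genes) and 31.9% lower (28.3% of all genes). The members' median log2 fold change was 0.02, against -0.03 over all genes, and the median size was 0.31 against 0.32. As a whole the families thus differed between the lines about as often and as much as genes in general did, and the account below is of single members.

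**Figure D1:**
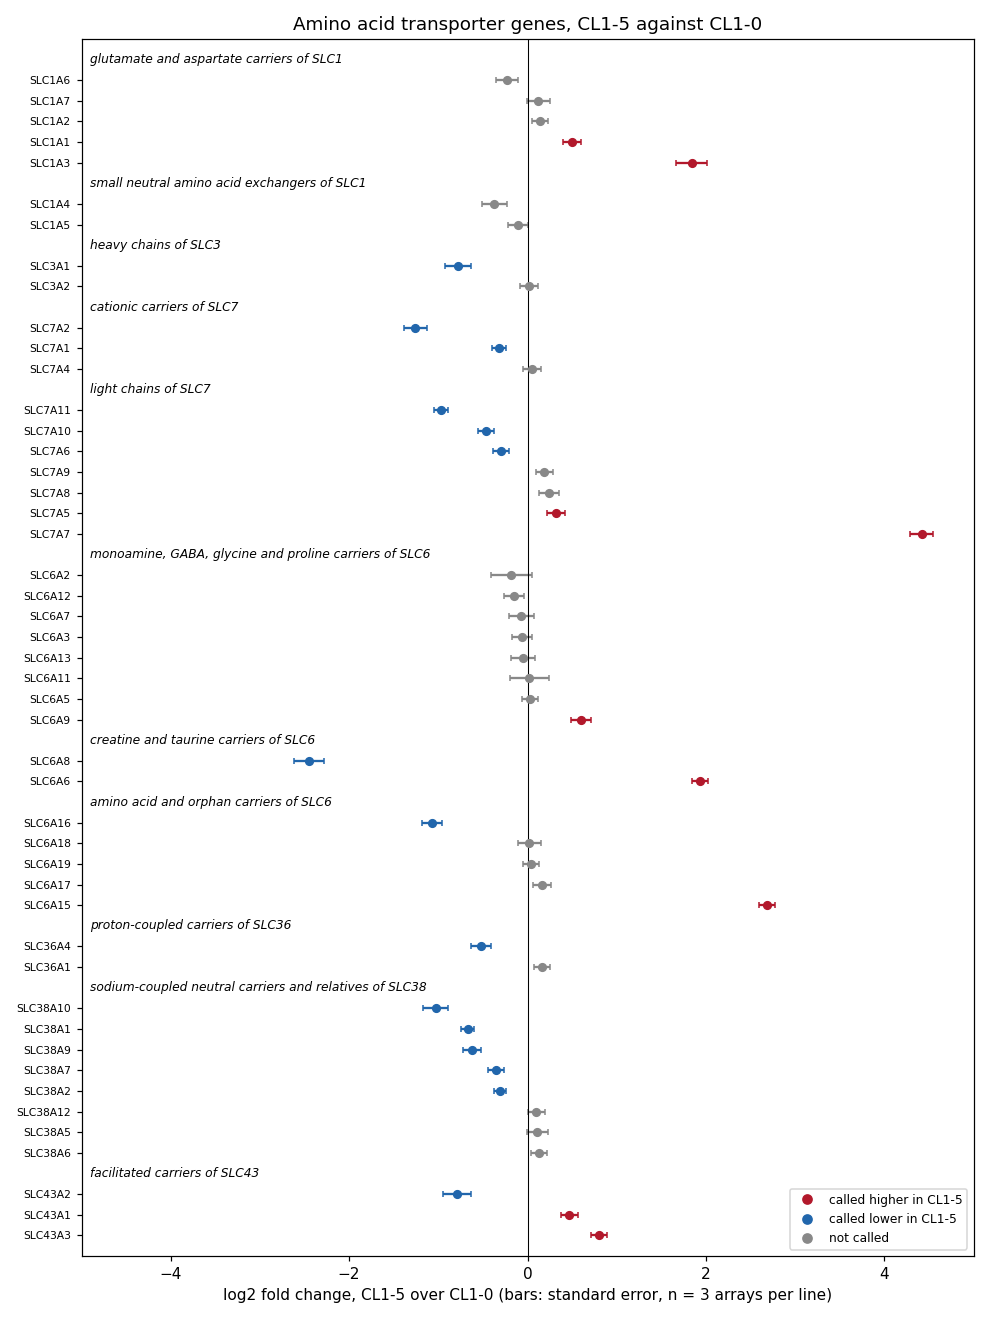
Log2 fold change of CL1-5 over CL1-0 (x axis) for the 47 tested transporter genes (y axis), grouped by role, with the standard error as bars (n = 3 arrays per line). SLC7A7 lies far to the right at 4.42 and SLC6A8 far to the left at -2.45, and all called SLC38 genes lie left of 0.

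Changes of at least 2-fold were few. Called genes past that size were 4 higher (8.51% of all genes, or 1262 of 14828, were called that much higher) and 4 lower (7.6% of all genes). Those higher in CL1-5 were SLC7A7, SLC6A15, SLC6A6 and SLC1A3, and those lower were SLC6A8, SLC7A2, SLC6A16 and SLC38A10. In the plot of fold changes by role, they come from different families. The lines did not overlap in 29 of the 47 members, 61.7% beside 58.8% of all genes.

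SLC7A7, a light chain that exchanges cationic for neutral amino acids and is best known from lysinuric protein intolerance, had the largest change of any member. Its signal was 53.9, 46.9 and 68.1 in CL1-0 repeats 1, 2 and 3 and 1281.7, 1300.0 and 1430.5 in CL1-5. The lines lay far apart, and the CL1-0 signals were dim but above the filter. The log2 fold change was 4.42 (SE 0.13, n = 3 per line, adjusted p = 1.4e-08 in limma), a 21.5-fold difference on the log2(signal + 6.85) scale. It was 4.41, 4.60 and 4.26 in repeats 1, 2 and 3 taken singly. SLC7A7 is also known as abundant in leukocytes. Of their markers, PTPRC and CD14 failed the filter, and CD3E passed it without a call (24.6 in CL1-0 and 23.7 in CL1-5 on average). What this means for the SLC7A7 signal was not tested. The gene rests on 1 probe set.

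SLC3A2, the heavy chain that SLC7A7 and the other CD98 light chains need, did not follow. Its signal was 1753, 1788 and 1499.6 in CL1-0 and 1760.1, 1838 and 1514 in CL1-5. The ranges of the lines overlapped, and repeat 3 was the lowest of each. The log2 fold change was 0.02 (SE 0.10, adjusted p = 0.89), and over all alternatives it stayed between -0.06 and 0.10.

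SLC7A11, the light chain that imports cystine in exchange for glutamate, was lower in CL1-5. It read 2528, 2481 and 2329 in CL1-0 and 1331, 1232 and 1177 in CL1-5, so that the lines did not overlap. The log2 fold change was -0.97 (SE 0.08, adjusted p = 8.2e-06 in limma), with -0.92, -1.01 and -0.98 in the single repeats. Its other tested probe sets gave -0.72 and -0.73, of which the second, with an adjusted p of 0.067 in the fit over all probe sets, was not called. On that probe set repeat 3 was the lowest of each line, at 275.6 and 170.4.

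The other CD98 light chains moved little. SLC7A5, which brings in leucine and other large neutral amino acids, read 1085, 1213 and 1149 in CL1-0 and 1249, 1508 and 1561 in CL1-5. It was higher by 0.32 (SE 0.10, adjusted p = 0.025 in limma), but it no longer passed when CL1-0 repeat 1 (adjusted p = 0.087) or CL1-5 repeat 2 (0.099) or 3 (0.078) was left out. Its relative SLC7A8 read 61.6, 71.1 and 70.3 in CL1-0 and 72.0, 89.9 and 82.8 in CL1-5. The difference of 0.24 was not called (adjusted p = 0.10), though a fit blocked on repeat number called it higher (adjusted p = 0.044). Its 4 tested probe sets differed in sign, from -0.24 to 0.36, and none was called.

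SLC7A6, which has the same exchange activity as SLC7A7, read 244, 258 and 234.5 in CL1-0 and 196, 190.5 and 205.5 in CL1-5. Its log2 fold change was -0.30 (SE 0.09, adjusted p = 0.018 in limma), opposite in sign to that of SLC7A7. The call was weak: its other 2 tested probe sets gave 0.11 and 0.26 without a call, and the mean of the 3 gave 0.02. It was also lost without CL1-0 repeat 2 (adjusted p = 0.076) or CL1-5 repeat 1 (0.053) or 2 (0.082). SLC7A10, a carrier of small neutral amino acids, read 22.1, 21.4 and 21.1 in CL1-0 and 13.6, 15 and 12.2 in CL1-5. CL1-5 did not exceed the percentile used as the filter, so the fold is a bound of at least 1.06-fold lower. The bound itself was not tested. The adjusted p of 0.0015 in limma belongs to the measured difference of -0.47 (SE 0.09).

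**Figure D2:**
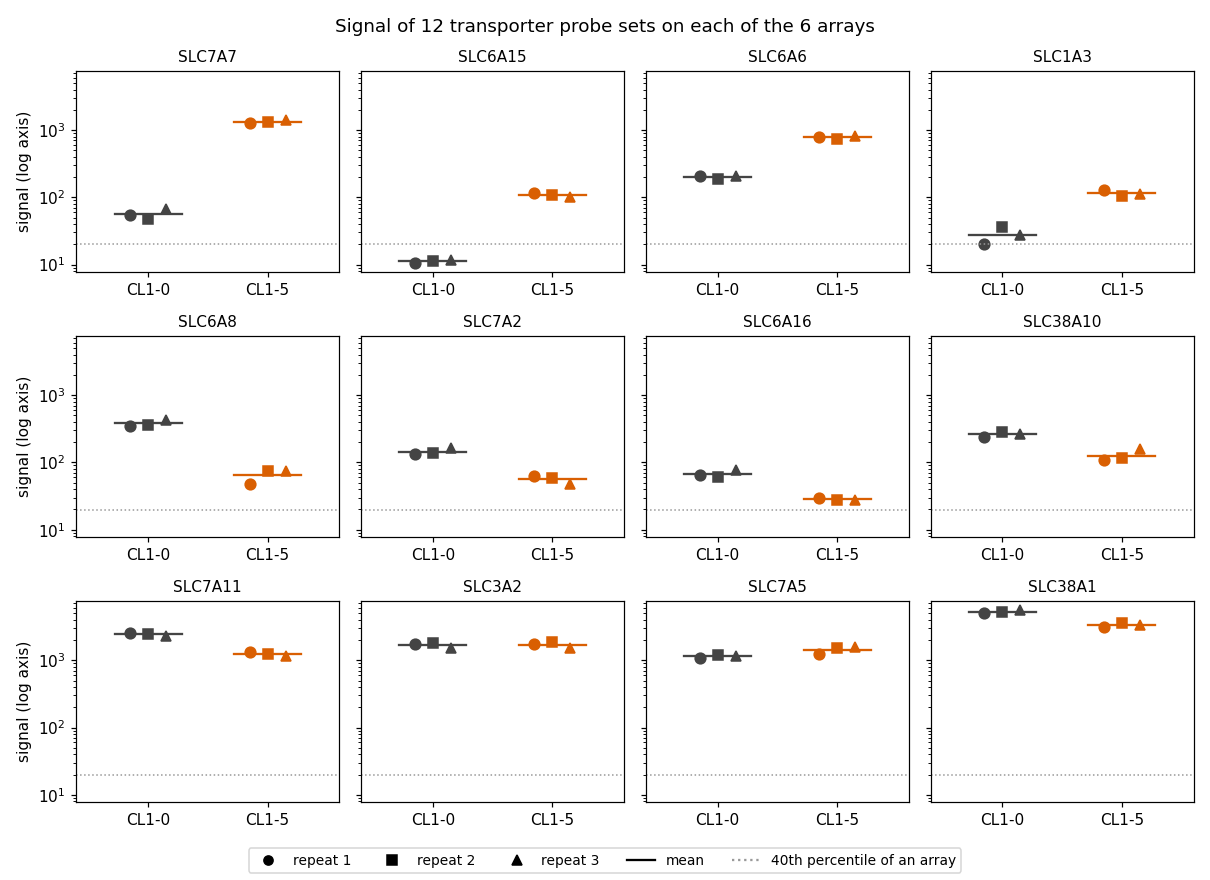
Signal on each array (y axis, log scale) of the probe sets standing for 12 transporter genes in CL1-0 and CL1-5 (x axis), with a symbol for each repeat, a line at the mean and a dotted line at the mean 40th percentile of the arrays. SLC7A7, SLC6A15, SLC6A6 and SLC1A3 are higher in CL1-5 in every repeat, SLC6A8, SLC7A2, SLC6A16, SLC38A10, SLC7A11 and SLC38A1 are lower in every repeat, and SLC3A2 overlaps.

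The kidney-type heavy chain SLC3A1, which forms the high-affinity cystine carrier with SLC7A9, was dim. It read 32.1, 22.3 and 36.1 in CL1-0 and 15, 12.5 and 16 in CL1-5. There it lay under the percentile, so it was at least 1.36-fold lower. The adjusted p of 0.002 in limma belongs to the measured difference of -0.78 (SE 0.15), not to that bound. SLC7A9 itself did not pass (0.19, adjusted p = 0.14).

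Of the carriers for arginine and lysine, SLC7A2 fell. Its signal was 132, 137 and 164 in CL1-0 and 62.7, 58.4 and 48.4 in CL1-5, with no overlap. The log2 fold change was -1.26 (SE 0.13, adjusted p = 4e-05 in limma), and it was -1, -1.14 and -1.63 in repeats 1, 2 and 3. SLC7A1, the carrier that most cells use for arginine, was lower by a small amount (-0.32, SE 0.08, adjusted p = 0.0077). That call rests on 1 of 5 tested probe sets, the others lying between -0.19 and 0.28, and it was lost when the probe sets were averaged (-0.11, adjusted p = 0.33). One of its uncalled probe sets was highest in repeat 3 of both lines, at 474.2 against 302.5 and 262.8 in CL1-0 and at 481.2 against 234.1 and 236.2 in CL1-5. SLC7A4, a relative without known transport on its own, did not pass (0.05, adjusted p = 0.70).

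The SLC6 family held the largest decrease and 2 of the 4 largest increases. SLC6A8, the creatine carrier, read 354, 363 and 428 in CL1-0 and 47.3, 74.2 and 73.4 in CL1-5. Every CL1-5 array lay well under every CL1-0 array. The log2 fold change was -2.45 (SE 0.17, adjusted p = 3.3e-06 in limma), or 5.48-fold lower. Its 2 probe sets of the cross-hybridising kind gave -1.97 and -2.06. SLC6A8 has near-identical pseudogene copies, so signal from them may contribute.

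SLC6A6, the taurine carrier, went the other way. Its signal was 207, 186 and 209 in CL1-0 and 789, 744 and 818 in CL1-5. The difference was 1.93 (SE 0.09, adjusted p = 2.5e-07 in limma), with 1.89, 1.96 and 1.94 in the single repeats. Of its 5 tested probe sets 4 were called higher. Of these, 2 were above the percentile in both lines, at 1.93 and 1.81, and 2 were dim in CL1-0, at least 2.7-fold and 1.17-fold higher. The other lay at 0.05 without a call.

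SLC6A15, which takes up proline and branched-chain amino acids with sodium and is best known from neurons, was below the percentile in CL1-0, at 10.6, 11.2 and 11.8. In CL1-5 it read 114.8, 109.4 and 101.6. It was therefore at least 4.3-fold higher. The adjusted p of 3.8e-08 in limma belongs to the measured difference of 2.68 (SE 0.09), not to that bound. A second tested probe set was also called higher, with 8.46 ± 1.33 signal units (SD, n = 3) in CL1-0 and 61.6 ± 8.07 in CL1-5. Its 3 other probe sets failed the filter, with at most 16.1 on any array.

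SLC6A16, an orphan carrier with no settled substrate, read 65.2, 60 and 76.9 in CL1-0 and 29.3, 27.5 and 27.9 in CL1-5. The difference was -1.07 (SE 0.11, adjusted p = 3.9e-05 in limma), and its second probe set was called lower too, by at least 1.11-fold, with CL1-5 under the percentile. SLC6A9, the widespread glycine carrier, was higher by 0.60 (SE 0.11, adjusted p = 0.002), from 72.1 ± 9.12 signal units (SD) to 112.1 ± 7.48.

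The transmitter carriers held 7 of the 23 members that were not called. Of 8 tested genes for carriers of monoamines, GABA, glycine and proline, 1 was higher, SLC6A9 (12.5%, against 23.3% of all genes), and 0 were lower (28.3% of all genes), with a median of -0.06. The noradrenaline carrier SLC6A2 (-0.18, SE 0.23), the dopamine carrier SLC6A3 (-0.06, SE 0.11), the neuronal glycine carrier SLC6A5 (0.03), the proline carrier SLC6A7 (-0.07) and the GABA and betaine carriers SLC6A11 (0.02), SLC6A12 (-0.15) and SLC6A13 (-0.05) did not pass. The SLC6A17 carrier of synaptic vesicles (0.16) and the kidney and gut carriers SLC6A18 (0.02) and SLC6A19 (0.04) did not pass either.

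Among the 5 glutamate and aspartate carriers of SLC1, 2 were higher (40%, against 23.3% of all genes) and 0 lower (28.3% of all genes), a count too small to set the group apart. SLC1A3, a glial glutamate carrier, read 20.1, 35.7 and 27.2 in CL1-0 and 128, 103 and 113 in CL1-5. Its CL1-0 arrays spread widely near the percentile, yet all lay below CL1-5. The log2 fold change was 1.84 (SE 0.17, adjusted p = 2.1e-05 in limma), and 2.33, 1.37 and 1.82 in the single repeats. SLC1A1, the carrier for glutamate and cysteine outside glia, was higher by 0.50 (SE 0.10, adjusted p = 0.0035). SLC1A2 (0.14), SLC1A6 (-0.23) and SLC1A7 (0.12) were not called.

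The small neutral amino acid exchangers did not pass. SLC1A5, the glutamine exchanger, averaged 1170 ± 79.2 signal units (SD, n = 3) in CL1-0 and 1089 ± 161 in CL1-5, and its lines overlapped (-0.11, SE 0.11, adjusted p = 0.46). SLC1A4, which exchanges alanine, serine and cysteine, differed by -0.37 with an adjusted p of 0.054. Its lines did not overlap, and a fit blocked on repeat number called it lower (adjusted p = 5.5e-04), while all 5 of its probe sets lay below 0, between -0.37 and -0.11, without a call.

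The sodium-coupled SLC38 family was lower in 5 of 8 tested genes (62.5%, against 28.3% of all genes) and higher in 0, with a median of -0.33. This count too is small and does not set the family apart, and SLC38A3, SLC38A4 and SLC38A11 were not tested. SLC38A1 and SLC38A2 are the main carriers for glutamine and alanine in many cells. SLC38A1 read 5130.0, 5168 and 5572 in CL1-0 and 3119, 3538 and 3341 in CL1-5, a log2 fold change of -0.67 (SE 0.07, adjusted p = 5.9e-05 in limma). Its neighbour SLC38A2, the next protein-coding gene on chromosome 12, was lower by a smaller amount (-0.31, SE 0.07, adjusted p = 0.0053). All 3 tested probe sets of each were called lower.

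The lysosomal members SLC38A9 and SLC38A7 were lower too. SLC38A9, which senses arginine for mTORC1, went from 289.7 ± 28.8 signal units (SD, n = 3) in CL1-0 to 186.3 ± 8.98 in CL1-5 (-0.62, SE 0.10, adjusted p = 8.7e-04 in limma). SLC38A7, which lets glutamine and asparagine out of the lysosome, was lower by -0.35 (adjusted p = 0.012), a call lost without CL1-0 repeat 2 (adjusted p = 0.055). SLC38A10 read 241, 288 and 263 in CL1-0 and 108, 116 and 156 in CL1-5, a log2 fold change of -1.03 (SE 0.14, adjusted p = 3e-04). That change was seen on 1 of 5 tested probe sets. The others lay between -0.39 and 0.13 without a call, and the mean over the 5 gave a called value of -0.37. SLC38A5 (0.11), SLC38A6 (0.13) and SLC38A12 (0.10) did not pass.

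In the smaller families the directions were mixed. SLC36A4, a carrier of proline and tryptophan, was lower (-0.52, SE 0.11, adjusted p = 0.0031), a value that became -0.24 when averaged over its probe sets, while SLC36A1, which exports small amino acids from the lysosome with protons, did not pass (0.16, adjusted p = 0.16). The facilitated carriers of large neutral amino acids parted: SLC43A1 was higher (0.47, SE 0.10, adjusted p = 0.0033) and SLC43A2 lower (-0.79, SE 0.16, adjusted p = 0.0033). SLC43A3 was at least 1.66-fold higher, with CL1-0 under the percentile (18.6 ± 0.896 against 37.6 ± 2.45 signal units, SD). SLC43A3 and SLC43A1 lie on chromosome 11 with 1 protein-coding gene between them.

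Counted by probe set, 13 of the 91 tested member probe sets were higher and 26 lower, against 19.8% and 24.6% of all 33777 probe sets (44.4% called in either direction). The other 47 member probe sets failed the filter. Of 22 genes with more than 1 tested probe set, 6 had all of them called in 1 direction, 8 had some called and the rest not, 8 had none called, and 0 had calls in opposite directions.

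**Figure D3:**
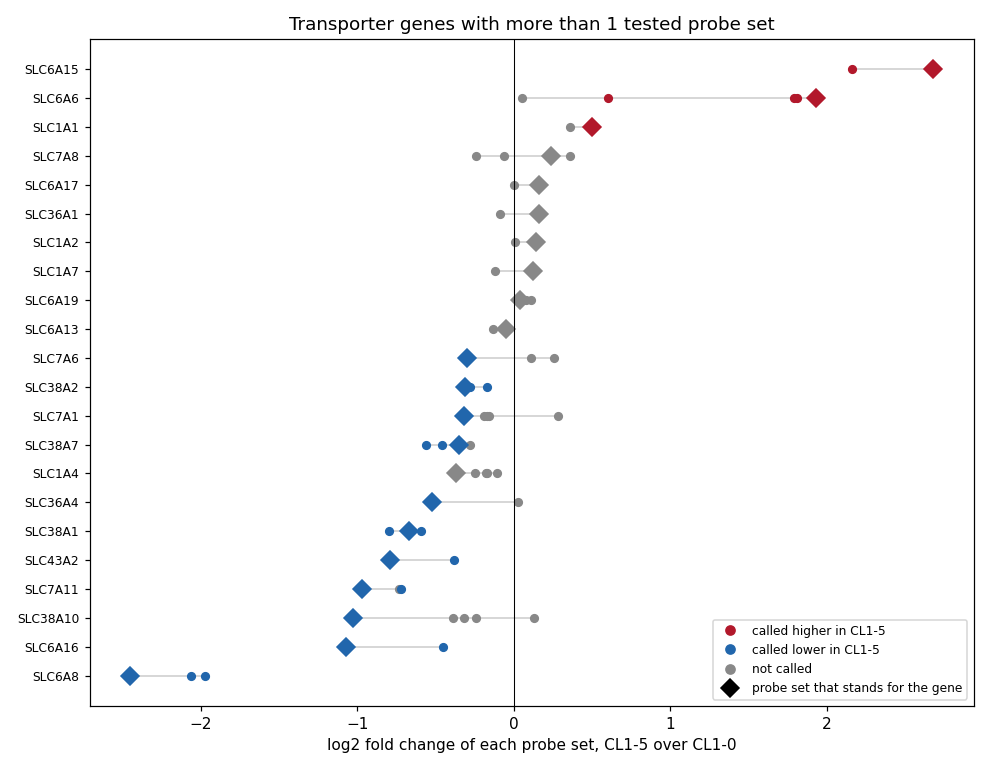
Log2 fold change of CL1-5 over CL1-0 (x axis) for each tested probe set of the 22 transporter genes with more than 1 (y axis), with the probe set that stands for the gene as a diamond and colour for the call. The probe sets of SLC6A8 lie together between -2.45 and -1.97, while those of SLC38A10 spread from -1.03 to 0.13.

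Genes around the transporters were read from 11 lists of amino acid sensing and metabolism, which hold 165 tested genes. Of these 43 were higher and 70 lower in CL1-5, together 68.5% against 51.6% of all genes. The cystine and glutathione list had 12 of 16 genes lower and 2 higher, beside 28.3% lower and 23.3% higher over all genes. Its median was -0.78 (all genes: -0.03). SLC7A11 thus stood beside lower levels of the enzymes that turn cysteine into glutathione. The catalytic subunit of glutamate-cysteine ligase, GCLC, fell from 2022.4 ± 127 signal units to 937.2 ± 75.8 (-1.11, SE 0.09), and the synthetase GSS fell by 0.74. Glutathione reductase GSR (-2.66, SE 0.23, with repeat 3 the lowest of each line) and GGCT, which splits gamma-glutamyl peptides (-1.37, SE 0.08), were the largest decreases, and the extracellular gamma-glutamyl hydrolase GGT5 (1.83, SE 0.11) the largest increase. Its relative GGT1 and the glutathione-degrading CHAC1 were not called (-0.03 and 0.28). The transcription factor NFE2L2, which drives many of these genes and SLC7A11, was lower (-1.13, SE 0.07, adjusted p = 1.7e-06 in limma). Its antagonist BACH1 was higher (1.28, SE 0.10, adjusted p = 6.5e-06, and 0.56 to 1.44 over the alternatives). KEAP1, of the same list, was lower by a small amount (-0.26, SE 0.09, adjusted p = 0.029), a call held in 21 of 28 alternatives. The part of these 3 regulators in the other transcripts was not tested.

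**Figure D4:**
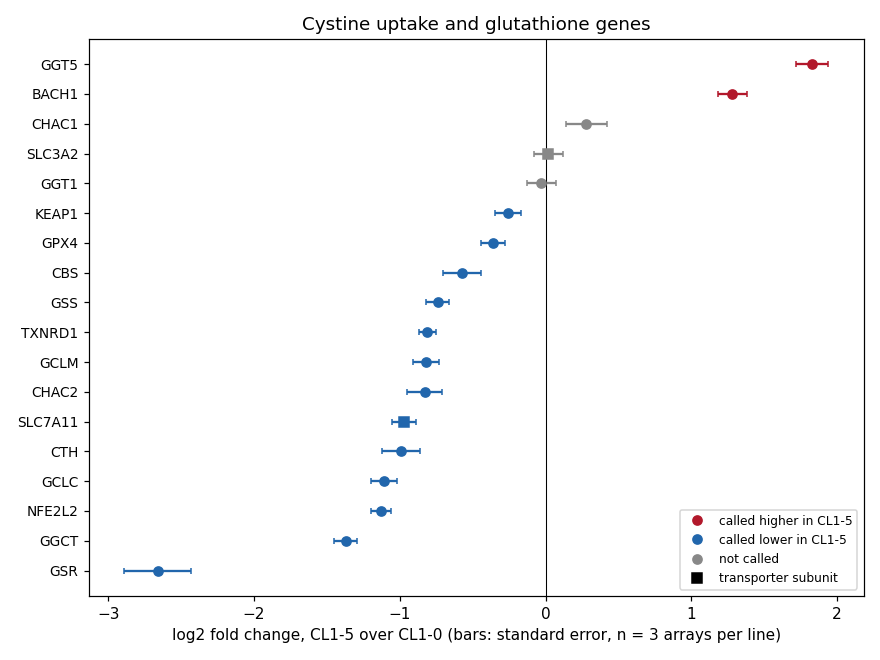
Log2 fold change of CL1-5 over CL1-0 (x axis) with its standard error (n = 3 arrays per line) for the 16 genes of the cystine and glutathione list and for both subunits of the cystine carrier (y axis, squares). SLC7A11 at -0.97 lies among the lower genes, SLC3A2 at 0.02 near 0, and GSR at -2.66 lowest.

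The amino acid response, by which cells short of amino acids raise transporters and synthetic enzymes through ATF4, did not move in 1 direction: 6 of 21 genes were higher and 10 lower, with a median of -0.05. That is 76.2% called, against 51.6% of all genes (23.3% higher and 28.3% lower). ATF4 itself (-0.02, adjusted p = 0.87) and its target ASNS, asparagine synthetase (0.12, adjusted p = 0.25), were not called. The stress-induced NUPR1 (4.31, SE 0.19), the mTORC1 inhibitor DDIT4 (2.10, SE 0.08) and the double-stranded RNA kinase EIF2AK2 (1.55, SE 0.12), also an interferon-induced gene, were the largest changes. DDIT3, a target of ATF4, fell by 1.49 (SE 0.15).

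Of 29 tested genes of amino acid sensing by mTORC1, 6 were higher and 11 lower, with a median of -0.25. That is 58.6% called, close to the 51.6% of all genes (23.3% higher and 28.3% lower). The Rag GTPase RRAGD rose by 1.51 (SE 0.19), and LAMTOR3, a part of the lysosomal anchor (-1.47, SE 0.08), and CASTOR2, of the cytosolic arginine sensors (-1.25, SE 0.13), fell. The cytosolic arginine sensor CASTOR1, which is a gene chosen after its value was seen, was higher by 0.64 (adjusted p = 0.0057), whereas the lysosomal sensor SLC38A9 was lower as described above.

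Enzymes that use the transported amino acids are given by list, beside 28.3% lower and 23.3% higher over all genes, where lower calls were also the more frequent. Glutamine, glutamate and aspartate metabolism had 7 of 13 genes lower and 1 higher, led by the aspartate transaminase GOT1 (-1.42, SE 0.10), the proline-forming PYCR1 (-1.36, SE 0.07) and PPAT of purine synthesis (-0.82, SE 0.12). Serine and glycine metabolism had 6 of 11 lower and 2 higher, with decreases of the glycine decarboxylase GLDC (-2.73, SE 0.14), SHMT2 (-0.98, SE 0.08) and GCSH (-0.69, SE 0.08). Cytosolic aminoacyl-tRNA synthetases had 9 of 17 lower and 2 higher, with WARS1 (-0.97, SE 0.09) and VARS1 (-0.77, SE 0.14) lower. SARS1 was called higher (0.78), but it has a second probe set called lower, and the mean of its probe sets was -0.03.

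Branched-chain amino acid catabolism was higher in 8 of 14 genes and lower in 4 (85.7% called, against 51.6% of all genes), with a median of 0.58. PPM1K, the phosphatase that switches on the branched-chain dehydrogenase (1.69, SE 0.11), AUH (1.55, SE 0.08) and IVD (1.05, SE 0.11) of leucine breakdown were among those that rose. BCKDK, the kinase of that dehydrogenase, was higher too (0.54, SE 0.10). The enzyme's subunits parted, with BCKDHA higher (0.77, SE 0.11) and BCKDHB lower (-0.88, SE 0.13). These last genes were chosen after their values were seen, and the enzyme's activity was not measured. SLC6A15 and SLC43A1, which carry branched-chain amino acids, were higher as well, and SLC43A2 was lower.

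Arginine and polyamine metabolism had 5 of 17 genes higher and 5 lower (58.8% called, against 51.6% of all genes). The polyamine oxidase SMOX (1.95, SE 0.09), the arginase ARG2 (1.54, SE 0.13) and the polyamine acetylase SAT1 (1.49, SE 0.10) rose and had the largest changes. The largest decrease was that of ODC1 (-1.39, SE 0.07), a gene chosen after its value was seen. Carriers of cationic amino acids were mixed, with SLC7A2 lower and the exchanger SLC7A7 higher (4.42). The lower calls of SLC7A1 and SLC7A6 were lost when their probe sets were averaged. Of 8 genes of tryptophan and tyrosine breakdown 2 were higher and 2 lower (50% called). QPRT was at -3.44 (SE 0.18), the tryptophan-cleaving, interferon-induced IDO1 at 1.16 (SE 0.19) and FAH at -1.01 (SE 0.14).

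Among 13 amino acid and peptide carriers of other families, 3 were higher and 5 lower (61.5% called, against 51.6% of all genes). The lysosomal peptide carrier SLC15A3 rose by 2.39 (SE 0.26), the lysosomal sialic acid and vesicular aspartate carrier SLC17A5 fell by 1.78 (SE 0.09), and the aromatic amino acid carrier SLC16A10 was at least 2.71-fold lower. Among partners and regulators 6 of 11 genes were higher and 1 lower (63.6% called, against 51.6% of all genes). CD44, whose protein can stabilise SLC7A11 at the surface, was at least 45-fold higher, and the kinase SGK1, which raises the surface level of several carriers, rose by 4.90 (SE 0.13). The ubiquitin ligase NEDD4L, which removes carriers from the surface, was higher by 2.79 (SE 0.09), though 1 of its 5 tested probe sets was called lower, and its value ranged from 1.28 to 2.86 over the alternatives.

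**Figure D5:**
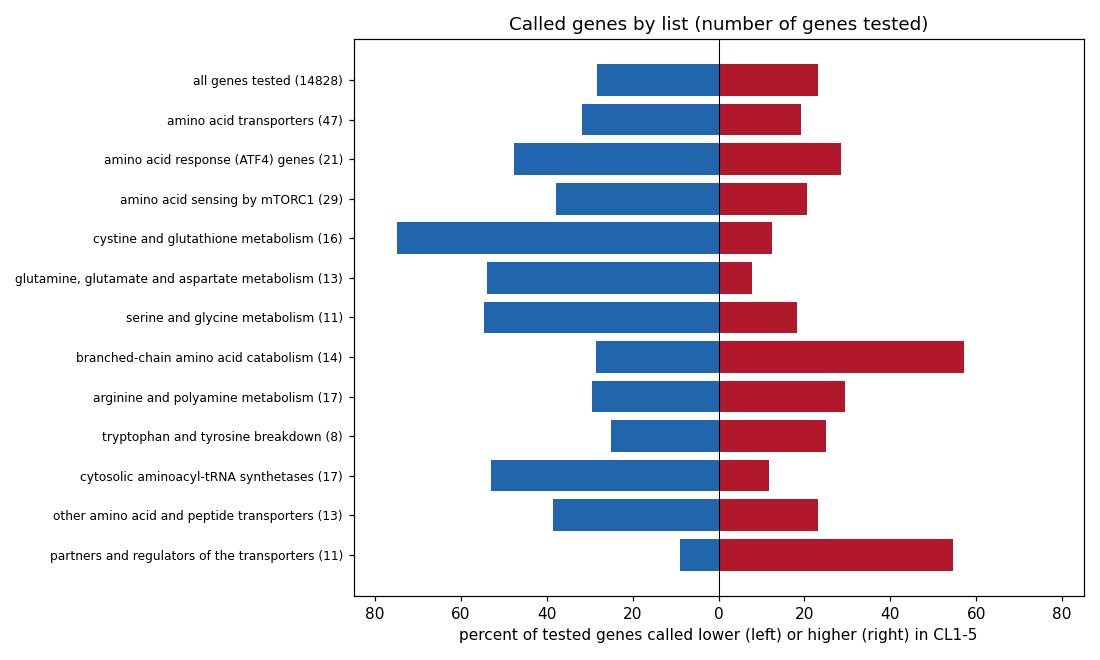
Percent of tested genes called lower (left, blue) or higher (right, red) in CL1-5 (x axis) for all genes, the transporters and the 11 lists (y axis, with the number of genes tested). The transporters lie close to all genes, the cystine and glutathione list reaches furthest left with 12 of 16 genes, and branched-chain catabolism furthest right with 8 of 14.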

How the data were processed

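Probe set values of 6 one-colour arrays were used, 3 of CL1-0 and 3 of CL1-5, grouped and numbered by the sample titles. The authors deposited 1 linear intensity per probe set and array, with array medians that lie close together. The submitters' processing notes name MAS5 without a version, and what followed is not given in the sources used here. Of 54675 probe sets, 41091 had 1 gene symbol in the platform annotation, of which 41037 were matched to RefSeq (GRCh38.p14) by gene identifier for current symbols. Another 3 probe sets with several symbols, among them a transporter of these families, were left out.

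Tests used log2(signal + 6.85), where 6.85 is the 10th percentile over the whole table. The filter required a signal over the array's 40th percentile on 3 or more of the 6 arrays. For each gene the brightest remaining probe set by mean was taken, and one with the suffix x (cross-hybridising) only if no other remained. The filter kept 14828 genes, which were fitted together in R 4.3.3 with limma 3.58.1 (lmFit, eBayes with a trend), Benjamini-Hochberg adjustment and a threshold of 0.05. A second fit took all 33777 probe sets that passed. Where a line lay at or under that percentile, on all 3 arrays or on average, the fold is a bound against, per array, the higher of the percentile and the measured value. The number of arrays limits precision; the median standard error was 0.11. The labels call the samples biological repeats without saying how they were separated, so p-values measure the spread between these samples.

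Same-numbered arrays deviated from their line means together, with correlations over genes of 0.475, 0.280 and 0.649. The labels give no reason for this pairing. The fit has no block, and the block is an alternative, beside the constant, filter, scaling, prior variance, array weights, choice of probe set, repeat 3 as a term, repeats 1 and 2 alone, each array left out and a stricter threshold. The fit and its adjustment were tested on simulated data in which the arrays varied independently. The filter, the choice of probe set, the bounds and the shared deviation of same-numbered arrays were not part of that test.

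Every tested member could be named, with values of every array for called members past 2-fold and for SLC3A2 and its light chains, and up to 3 genes of each list with the largest called change. Genes of a list named beyond these, such as ATF4, ASNS and DDIT3 and further glutathione genes, were chosen after their values were seen. The members and lists were chosen with earlier results of these data known. Upstream sequence came from RefSeq (GRCh38.p14).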

Additional observations from a re-analysis of the deposited data

How the results depend on the processing

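Of the 24 transporter genes called, 16 were called in the same direction under all 28 alternatives. SLC3A1, SLC43A3, SLC6A15 and SLC7A10 are each expressed above the filter on the arrays of 1 line only, and were not tested where an array of that line was missing and 3 were still required. They were called again with the filter on 2 arrays, where the same line alone let them pass, so this adds no support to their calls. With all 6 arrays and the filter at the 60th percentile, SLC3A1, SLC43A3 and SLC7A10 were not tested either. SLC7A5, SLC7A6, SLC38A7 and SLC7A1 lost their call under the alternatives given beside them, and SLC7A6 changed sign, to 0.02, with the mean of a gene's probe sets. The first 3 of these 4 also missed the threshold of 0.01. Leaving out 1 array gave 6 to 9 transporter genes higher and 11 to 16 lower, 7 to 12 probe sets higher and 18 to 28 lower, and 37 to 44 pathway genes higher and 62 to 69 lower. The fewest probe sets higher, 8, 7 and 8, came without CL1-5 replicate 1, 2 or 3, where the filter still required 3 arrays. With the filter on 2 arrays, leaving out 1 array gave 12 to 13 probe sets higher and 21 to 28 lower, 8 to 9 genes higher and 13 to 16 lower, and 37 to 44 pathway genes higher and 62 to 70 lower. With array weights 32 transporter genes were called, and 20 probe sets were higher in place of 13. At an adjusted p under 0.01, 17 probe sets were lower in place of 26. The repeat number as a block (replicate block) kept all 24 calls and added SLC1A4 and SLC7A8, 26 in all, and changed no other call among the transporters. The median of all genes was -0.04 after quantile normalization and -0.03 with array medians set equal, against -0.03. Signals near the percentile, as for SLC7A10 and SLC3A1, limit what can be said of dim members.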
